A study of Mus musculus with 6 samples.

Results

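The expression of 50 genes for secreted factors was analysed in bone marrow-derived mast cells (BMMCs) of the strains BALB/c and C57BL/6. The genes comprised 11 CC chemokines, 6 CXC chemokines, 13 interleukins, 7 members of the tumour necrosis factor (TNF) family, 5 colony stimulating or IL-6 family factors, 5 tissue growth factors and 3 other secreted proteins. They were taken from a list of symbols that was drawn up with earlier results of these data known, and all 50 were found among the 35293 genes to which the transcripts were assigned. BMMCs are mast cells grown from bone marrow precursors in culture. Both strains were naive wild type mice, and both sets of cultures received IL-3, IL-9, TGF-β1 and stem cell factor, so that the protein products of the member genes Il3, Il9 and Kitl were present in the medium. RNA of day 20 was sequenced from unstimulated cultures as 3 libraries of BALB/c (S9, S10 and S11) and 3 libraries of C57BL/6 (S12, S13 and S14). The study describes the libraries of a strain as biological replicates, while the labels name no separate mice or cultures. The p-values set the difference between the strains against the spread between these libraries.

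Mast cells store TNF and proteases in granules and make further cytokines and chemokines when they are activated through the IgE receptor, by IL-33 or by microbial products. Chemokines are small proteins that guide leukocytes to a site, and the genes of many CC chemokines lie side by side on mouse chromosome 11. Interleukins and TNF family ligands act on neighbouring cells through receptors that signal mainly to JAK and STAT proteins or to NF-κB. Many of these mRNAs are short-lived and low in resting cells, and mRNA levels do not give the amount of secreted protein.

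The libraries held 28271211 to 37098659 reads on genes. The mast cell markers had a high sum in both strains, mostly from Cpa3 and Cma1. It was 30905 to 33454 CPM (counts scaled to a common library size) in BALB/c against 29945 to 31536 CPM in C57BL/6. Of 10 mast cell markers 9 were tested, while Mrgprb1 had at most 1 read in any library. Hdc (histidine decarboxylase) alone passed both thresholds, at 2.35 CPM in BALB/c against 5.34 CPM in C57BL/6. By the adjusted p alone 6 passed, and of these Cma1 was the only lower one (log2 fold change -0.43, adjusted p = 0.00107, edgeR). Of 10 macrophage or monocyte markers 3 were tested and all of them were higher in C57BL/6, namely Adgre1, Cd68 and Ccr2, with a sum over the 10 genes of 6.63 to 10.2 CPM against 28.0 to 33.2 CPM. Of the other markers on this list, C1qa, C1qb, C1qc and Csf1r were at 0 in all 6 libraries, and Lyz2, Mrc1 and Ly6c2 had at most 2 reads in any. All 8 basophil markers were tested, and 3 of them passed both thresholds as higher (Mcpt8, Prss34 and Cebpa). Prss34 had 1, 8 and 2 reads in BALB/c and Cebpa 5, 3 and 2, and both passed the filter on low counts through C57BL/6. Ms4a3 was higher (log2 fold change 0.99, adjusted p = 0.0024) and Il18r1 lower (log2 fold change -0.54, adjusted p = 0.00415) by under 2-fold. The sum of the basophil markers was 1200 to 1345 CPM against 1439 to 1458 CPM. Most of it came from Gzmb and Cd200r3, which did not pass the test (adjusted p = 0.224 and 0.153, edgeR). Of 6 dendritic cell markers 2 were tested. Itgax was higher, at 8.08 ± 0.418 CPM against 37.5 ± 1.09 CPM, and made up most of the sum, while H2-Ab1 was lower by under 2-fold (log2 fold change -0.95, adjusted p = 0.015), and Cd209a and Siglech were at 0. The sum of the megakaryocyte markers, almost all of it Itga2b, was 1088 to 1163 CPM against 1617 to 1713 CPM, and that of stromal or endothelial markers, almost all of it Pecam1, was 548 to 554 CPM against 737 to 757 CPM. Erythroid markers summed to 0.266 to 0.534 CPM against 6.04 to 6.19 CPM, mostly from Hbb-bt, and T, NK or innate lymphoid markers to 6.98 to 7.95 CPM against 9.09 to 9.73 CPM, with Gata3 higher. The part of these differences in the results below was not tested. In bulk RNA, fewer cells of a type and less RNA per cell cannot be told apart.

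Most of the secreted factor genes that could be tested were higher in C57BL/6 BMMCs. Of the 50 genes, 34 had enough reads for the test, and 26 of these differed between the strains at an adjusted p under 0.05 and a fold change over 2 (edgeR quasi-likelihood test, Benjamini-Hochberg adjustment over all genes). Of the 26, 22 were higher and 4 were lower in C57BL/6. Over all 12458 genes tested, 13.3% passed both thresholds, 7.73% as higher and 5.54% as lower in C57BL/6. The median log2 fold change (C57BL/6 over BALB/c) was 1.96 over the 34 genes and -0.01 over all genes tested. An adjusted p under 0.05 alone was reached by 31 of the 34 genes and by 52.9% of all genes tested, and 32 of the 34 genes, as well as 61.9% of all genes, had libraries without overlap between the strains. Of the 34 genes, 6 had under 10 reads in every library of 1 strain and passed the filter on low counts mainly through the other strain. Of these 6, Ccl1, Ccl5, Cxcl2, Il7 and Kitl passed both thresholds and Ltb did not.

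**Figure D1:**
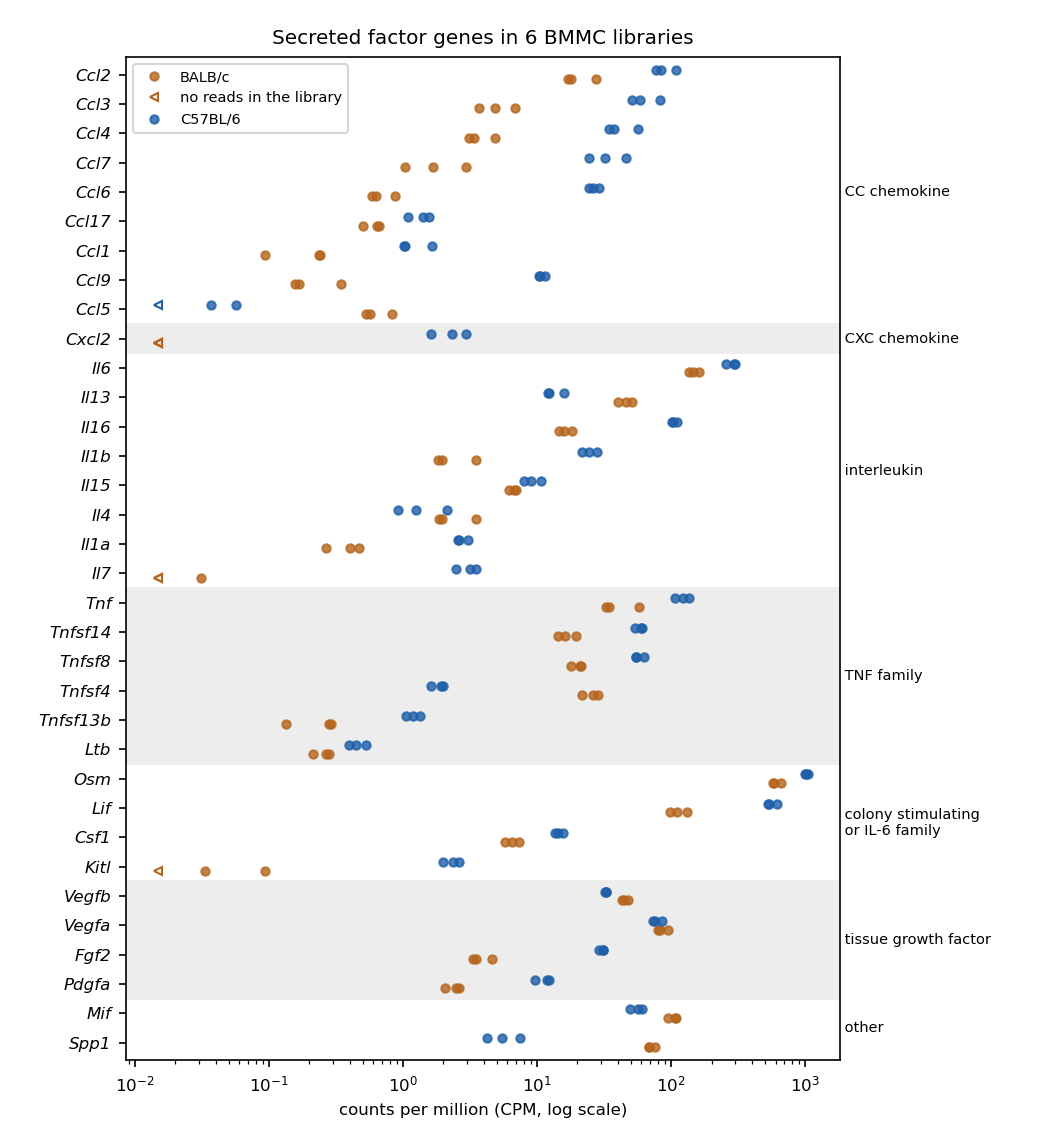
CPM of the 34 tested secreted factor genes in each library on a log axis, brown for BALB/c and blue for C57BL/6, with open triangles for libraries without a read and genes grouped by role. The libraries of the strains overlap only for Il4 and Vegfa, and the brown points lie to the right of the blue ones for Ccl5, Il13, Tnfsf4, Vegfb, Mif and Spp1.

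The oncostatin M and IL-6 mRNAs were the most abundant over all libraries together. On the TPM scale, which is corrected for transcript length, Osm was first in both strains with 495 ± 35.4 TPM in BALB/c and 733 ± 32.3 TPM in C57BL/6 (SD, n = 3 here and for all strain means). Il6 was at 217 ± 16.4 TPM in BALB/c and 369 ± 32.4 TPM in C57BL/6, where it held place 2. In BALB/c place 2 was taken by Mif at 365 ± 22.4 TPM, against 173 ± 19.2 TPM in C57BL/6. The lower places differed more between the strains. Spp1 and Il13 were in places 4 and 5 in BALB/c, at 80.0 ± 3.79 and 63.4 ± 7.49 TPM, and in places 21 and 17 in C57BL/6, at 5.71 ± 1.57 and 16.4 ± 2.87 TPM. Lif, Ccl2, Ccl3, Ccl4 and Tnf held places from 3 to 8 in C57BL/6, with Mif among them. The TPM of all 50 genes summed to 1530 to 1605 per library in BALB/c and to 2222 to 2613 in C57BL/6.

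Among CC chemokines, all 9 genes that could be tested differed, 8 as higher in C57BL/6 and Ccl5 as lower, with a median log2 fold change of 3.50 over the 9. Their genes lie in 2 groups on chromosome 11, apart from Ccl17. In the annotation of the GRCm39 genome, Ccl2 (81926397 to 81928279, plus strand) and Ccl7 (81936532 to 81938351, plus strand) open the first group and Ccl1 (82067483 to 82070744, minus strand) ends it. Between them lie Ccl11, Ccl12 and Ccl8, eosinophil and monocyte attractants that had at most 1, 2 and 0 reads in any library. The second group runs from Ccl5 (83416602 to 83421345, minus strand) over Ccl9 (83463745 to 83469467, minus strand), Ccl6 (83478708 to 83483913, minus strand) and Ccl3 (83538670 to 83540191, minus strand) to Ccl4 (83553383 to 83555509, plus strand).

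**Figure D2:**
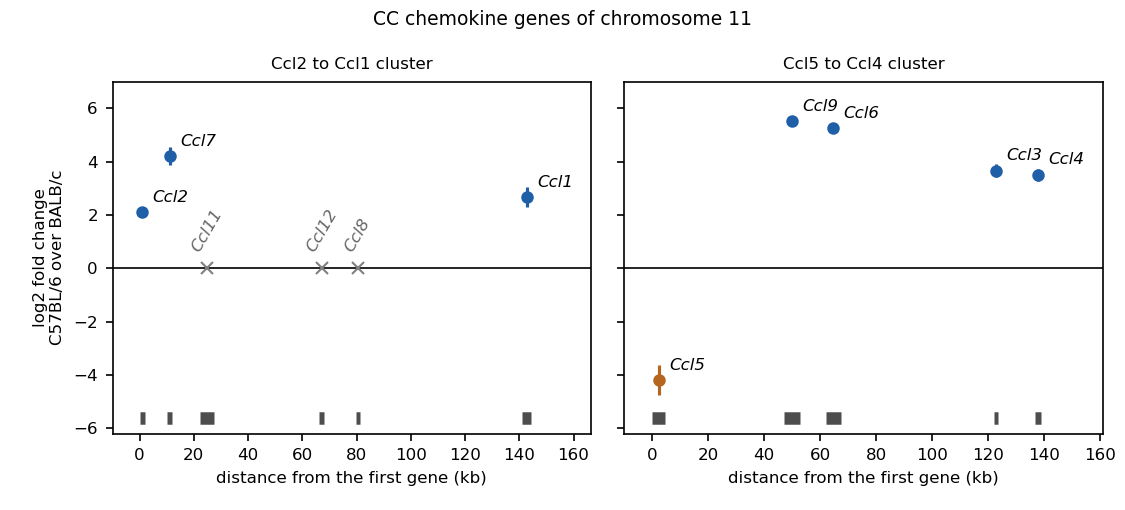
Log2 fold change (C57BL/6 over BALB/c, bar: SE) of the chemokine genes of chromosome 11 against the distance from the first gene of each group in kb, with black blocks for the genes and crosses at 0 for genes with too few reads to test. All fitted genes lie above 0 except Ccl5, which at 3 reads over the C57BL/6 libraries has a fold change that depends on the prior count.

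The 250 bases before the annotated start are shown for 6 genes with large differences, chosen after their values were seen, since genes of one locus differed in both directions. The sequences are of the GRCm39 genome, written 5′ to 3′ along the strand of the gene and ending at the base before the start. Capitals mark the motifs searched. The TATA box was read as TATAAA on the forward strand only. The other motifs were read on both strands. For AP-1 the letters were TGANTCA. For NF-κB they were GGG, any 2 bases, TT, any base and CC. GATA was read as AGATAA.
Ccl2, chr11:81926147-81926396, plus strand: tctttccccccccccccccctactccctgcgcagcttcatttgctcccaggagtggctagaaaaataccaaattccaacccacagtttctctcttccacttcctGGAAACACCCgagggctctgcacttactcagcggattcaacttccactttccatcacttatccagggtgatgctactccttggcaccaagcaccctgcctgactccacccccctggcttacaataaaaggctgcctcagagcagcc
Ccl7, chr11:81936282-81936531, plus strand: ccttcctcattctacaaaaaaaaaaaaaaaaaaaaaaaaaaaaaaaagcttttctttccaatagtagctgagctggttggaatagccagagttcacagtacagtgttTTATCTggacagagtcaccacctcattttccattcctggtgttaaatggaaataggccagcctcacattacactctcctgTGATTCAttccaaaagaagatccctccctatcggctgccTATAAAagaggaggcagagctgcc
Ccl9, chr11:83469468-83469717, minus strand: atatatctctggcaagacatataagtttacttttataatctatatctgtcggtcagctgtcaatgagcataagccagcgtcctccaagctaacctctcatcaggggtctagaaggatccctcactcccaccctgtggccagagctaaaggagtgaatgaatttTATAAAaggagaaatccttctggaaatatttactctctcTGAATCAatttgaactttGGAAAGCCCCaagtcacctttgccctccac
Ccl5, chr11:83421346-83421595, minus strand: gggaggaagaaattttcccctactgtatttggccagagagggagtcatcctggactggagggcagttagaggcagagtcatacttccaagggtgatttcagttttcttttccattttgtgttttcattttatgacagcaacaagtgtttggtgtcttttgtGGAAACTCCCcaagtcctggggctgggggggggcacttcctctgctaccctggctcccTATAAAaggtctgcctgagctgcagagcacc
Cxcl2, chr5:91051480-91051729, plus strand: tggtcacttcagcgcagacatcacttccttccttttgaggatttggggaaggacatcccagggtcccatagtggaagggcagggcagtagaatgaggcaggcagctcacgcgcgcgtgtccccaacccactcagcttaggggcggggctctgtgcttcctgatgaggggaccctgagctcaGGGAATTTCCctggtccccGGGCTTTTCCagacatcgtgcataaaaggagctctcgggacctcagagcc
Il13, chr11:53525530-53525779, minus strand: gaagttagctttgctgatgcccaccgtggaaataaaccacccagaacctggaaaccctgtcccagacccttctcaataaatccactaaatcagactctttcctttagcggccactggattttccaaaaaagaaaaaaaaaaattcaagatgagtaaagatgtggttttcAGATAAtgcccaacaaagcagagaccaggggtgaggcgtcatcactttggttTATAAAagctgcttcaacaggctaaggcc

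The window of Ccl2 held the NF-κB letters GGAAACACCC, on the reverse strand, 146 bases before the start. Ccl7, its neighbour, held none, but had TATAAA at 24 bases, the AP-1 letters TGATTCA at 63 and the GATA letters TTATCT at 143. Ccl9 had TATAAA at 87, AP-1 letters at 48 and NF-κB letters at 30 bases before the start, and Cxcl2 had NF-κB letters at 69 and 50. The genes that were lower in C57BL/6 held such letters too: Ccl5 had TATAAA at 31 and NF-κB letters at 89 bases, and Il13 had TATAAA at 29 and GATA letters at 81. Over 21738 windows of the same length, 8.04% held the TATA box, 6.18% AP-1, 4.17% NF-κB, 9.61% GATA and 16.2% an E-box (CACGTG or CATGTG, both strands). Of the 22 genes higher in C57BL/6, 4 held the TATA box, 6 AP-1, 4 NF-κB, 2 GATA and 5 an E-box. The counts among the 4 genes that were lower were 2, 0, 1, 2 and 1, and among the other 24 genes 7, 3, 5, 3 and 4. A match says only that the letters are there.

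Ccl2, Ccl7, Ccl3 and Ccl4 attract monocytes and other leukocytes and are known products of activated mast cells. The monocyte attractant Ccl2 was at 27.5, 18.1 and 17.0 CPM in BALB/c (in the order S9, S10 and S11 here and for all genes) and at 108, 84.6 and 77.0 CPM in C57BL/6 (in the order S12, S13 and S14). All C57BL/6 libraries were above all BALB/c libraries, and Ccl2 was 4.32-fold higher (log2 fold change 2.11, SE 0.18, adjusted p = 1.37e-05). The neighbouring Ccl7, which binds partly the same receptors, was at 2.95, 1.68 and 1.04 CPM in BALB/c and at 46.1, 31.9 and 24.3 CPM in C57BL/6. Its difference was 18.3-fold (log2 fold change 4.19, SE 0.34, adjusted p = 8.49e-06), on a lower level than that of Ccl2 in every library. Ccl3, a ligand of CCR1, was at 6.88, 4.87 and 3.67 CPM against 82.7, 58.6 and 51.4 CPM, 12.6-fold higher (log2 fold change 3.66, SE 0.23, adjusted p = 2.01e-06). Ccl3 shares 28.95% of its 31-base words with Gm53692, whose reads were not analysed here. Ccl4, a related leukocyte attractant, was at 4.87, 3.09 and 3.38 CPM against 56.5, 37.4 and 34.4 CPM, 11.3-fold higher (log2 fold change 3.50, SE 0.23, adjusted p = 2.25e-06). For these 4 genes S9 was the highest BALB/c library and S12 the highest C57BL/6 library.

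Ccl6 and Ccl9, a pair of related rodent chemokines that bind CCR1, had the largest fold changes among the CC chemokines. Ccl6 was at 0.628, 0.872 and 0.585 CPM in BALB/c and at 28.8, 26.0 and 24.2 CPM in C57BL/6. Ccl9 was at 0.157, 0.168 and 0.346 CPM in BALB/c, which are 5, 5 and 13 reads, and at 10.6, 11.5 and 10.4 CPM in C57BL/6. The C57BL/6 levels of both genes were close to each other between libraries, and the differences were 38.1-fold for Ccl6 (log2 fold change 5.25, SE 0.14, adjusted p = 9.02e-09) and 46.0-fold for Ccl9 (log2 fold change 5.52, SE 0.20, adjusted p = 6.44e-08, edgeR).

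The other CC chemokines were low in both strains. Ccl1, a ligand of CCR8, was at 0.0942, 0.235 and 0.239 CPM in BALB/c (3, 7 and 9 reads) and at 1.66, 1.03 and 1.02 CPM in C57BL/6, with a log2 fold change of 2.67 (SE 0.38, adjusted p = 0.000348). Ccl17, a ligand of CCR4 on T cells, was at 0.660, 0.638 and 0.505 CPM and at 1.10, 1.55 and 1.41 CPM, with a log2 fold change of 1.17 (SE 0.25, adjusted p = 0.00328). Ccl5, which attracts T cells and eosinophils, went the other way, with 17, 17 and 31 reads in BALB/c and 0, 1 and 2 reads in C57BL/6. The ratio of the pooled counts per depth was 20.6 in favour of BALB/c (95% interval 6.75 to 103, counting error only), with an adjusted p of 0.000266. Its fitted log2 fold change was -4.20, against -4.96 without S14 and -3.65 without S12. Ccl22 and Ccl24, ligands of CCR4 and CCR3, had no read in any library.

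The CXC chemokines were largely absent from the reads. Cxcl2, which attracts neutrophils through CXCR2, had no read in any BALB/c library and 74, 80 and 57 reads in C57BL/6 (2.32, 2.96 and 1.61 CPM). Against a floor of 3 counts over the BALB/c libraries it was at least 73.9-fold higher in C57BL/6 (adjusted p = 3.86e-05). Its relatives Cxcl1 and Cxcl3 had no read in any library, Cxcl10 and Cxcl12 had at most 1, and Cxcl16 had 5, 8 and 7 reads in BALB/c and 9, 5 and 18 reads in C57BL/6.

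Of 13 interleukins 8 were tested. Il1a, Il1b, Il7 and Il16 were higher in C57BL/6 and Il13 was lower, Il6 and Il15 differed by under 2-fold, and Il4 did not pass the test. Il1b, the secreted IL-1 that needs cleavage by an inflammasome, was at 1.95, 3.52 and 1.81 CPM in BALB/c and at 28.1, 24.2 and 21.5 CPM in C57BL/6. It was 10.3-fold higher without overlap of the libraries (log2 fold change 3.36, SE 0.21, adjusted p = 1.84e-06). Il1a, which acts through the same receptor, was at 0.471, 0.403 and 0.266 CPM against 3.04, 2.59 and 2.63 CPM, 7.27-fold higher (log2 fold change 2.86, SE 0.24, adjusted p = 1.09e-05). Il16, a chemoattractant for CD4+ cells, was at 18.3, 15.8 and 14.6 CPM against 102, 103 and 110.4 CPM, 6.47-fold higher (log2 fold change 2.69, SE 0.08, adjusted p = 1.32e-08). The 3′ part of Il16 (chromosome 7, 83292016 to 83395370, minus strand) overlaps Stard5 on the other strand, which was also higher (log2 fold change 2.48, adjusted p = 1.60e-07) and shares 15.3% of the 31-base words of Il16 transcripts. Il7, a lymphocyte survival factor, had 1 read over the BALB/c libraries and 112, 85 and 88 reads in C57BL/6 (3.51, 3.14 and 2.49 CPM), a pooled ratio of 300 (95% interval 53.3 to 11873, counting error only, adjusted p = 1.71e-06). Its fitted log2 fold change was 7.77, against 9.62 without S9, which held the 1 read, and 7.23 without S11.

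Il13 and Il4, which lie next to each other on chromosome 11 and are the type 2 cytokines of mast cells, were both higher on average in BALB/c. Il13 (53522151 to 53525529, minus strand) was at 40.0, 51.4 and 46.4 CPM in BALB/c and at 15.8, 12.3 and 12.1 CPM in C57BL/6. It was 3.42-fold lower in C57BL/6 with no overlap (log2 fold change -1.77, SE 0.12, adjusted p = 2.88e-06). Il4 (53503287 to 53509496, minus strand) was at 1.85, 3.52 and 1.97 CPM against 2.13, 0.924 and 1.24 CPM, and the libraries overlapped. Its log2 fold change of -0.75 (SE 0.34) did not pass the test (adjusted p = 0.0959), and ranged from -0.41 without S10 (adjusted p = 0.34) to -1.15 without S12 (adjusted p = 0.0268), the only library without which it passed both thresholds. Il5, the eosinophil growth factor of the same locus, had at most 2 reads in any library.

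Il6, the acute phase cytokine, was at 145, 136 and 160.4 CPM in BALB/c and at 298, 293 and 254 CPM in C57BL/6. The libraries did not overlap, and the difference was 1.92-fold (log2 fold change 0.94, SE 0.08, adjusted p = 9.08e-06), which went just past 2-fold without S11 or without S14 (log2 fold change 1.01 at most). Il15, a growth factor for NK cells, had a log2 fold change of 0.48 (SE 0.12, adjusted p = 0.0085), which did not pass in limma on log2(TPM + 1) or log2(TPM + 0.1) (log2 0.23 and 0.25, adjusted p = 0.0618 and 0.0585). Il3 and Il9, both given in the medium, had no read in any library, while Il2 and Il10 had at most 1.

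**Figure D3:**
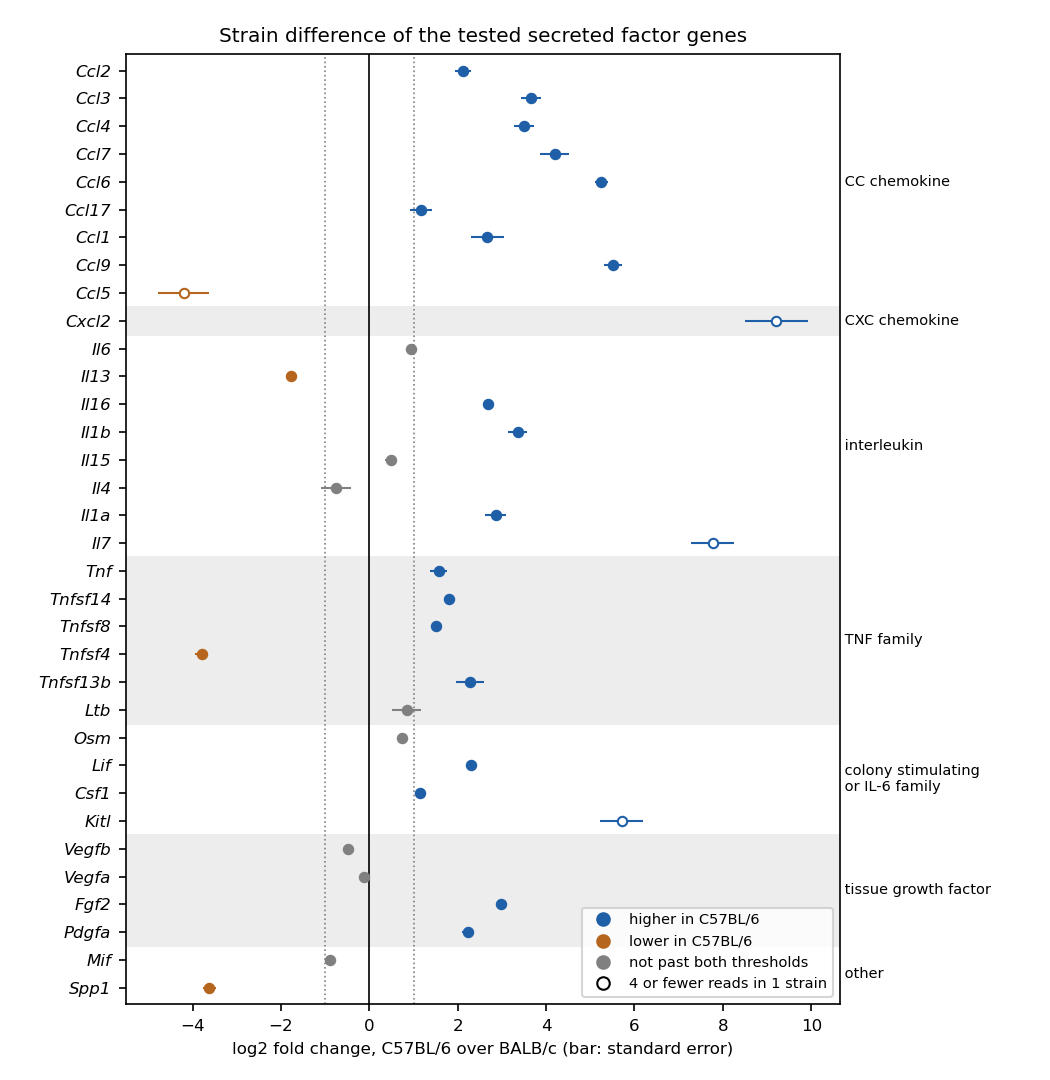
Log2 fold change (C57BL/6 over BALB/c, bar: SE) of the 34 tested genes by role, blue and orange for genes past both thresholds, grey for the others, with dotted lines at 2-fold. Open points are genes with 4 or fewer reads over 1 strain, whose position depends on the prior count. There are 22 blue points on the right, while Ccl5, Il13, Tnfsf4 and Spp1 lie to the left.

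In the TNF family, 4 of 6 tested genes were higher and Tnfsf4 was lower in C57BL/6. Tnf itself (chromosome 17, 35418357 to 35420983, minus strand) was at 57.1, 32.5 and 34.4 CPM in BALB/c and at 136, 108 and 123 CPM in C57BL/6. It was 2.97-fold higher (log2 fold change 1.57, SE 0.19, adjusted p = 0.000119), with S9 well above the other BALB/c libraries but under all C57BL/6 libraries. Its neighbours Ltb and Lta, which form lymphotoxin heterotrimers, were low. Ltb was at 0.283, 0.268 and 0.213 CPM against 0.532, 0.444 and 0.396 CPM (log2 fold change 0.84, SE 0.32, adjusted p = 0.0514), and Lta had 11, 4 and 6 reads against 4, 3 and 8.

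Tnfsf4 encodes OX40 ligand, a costimulator of T cells, and had the largest decrease among members with more than 20 CPM in BALB/c. It was at 21.6, 28.7 and 26.3 CPM in BALB/c, from 689, 855 and 989 reads. In C57BL/6 it had 64, 52 and 57 reads, with a mean of 1.85 ± 0.207 CPM, and was 13.9-fold lower without overlap of the libraries (log2 fold change -3.80, SE 0.14, adjusted p = 6.57e-08). Tnfsf8 (CD30 ligand) was at 20.8, 17.8 and 21.2 CPM against 54.6, 62.2 and 54.4 CPM, and Tnfsf14 (LIGHT) at 19.5, 16.2 and 14.4 CPM against 61.1, 53.5 and 59.8 CPM. Both were higher in every C57BL/6 library, 2.85-fold for Tnfsf8 (log2 fold change 1.51, SE 0.08, adjusted p = 5.78e-07) and 3.49-fold for Tnfsf14 (log2 fold change 1.80, SE 0.10, adjusted p = 9.26e-07, edgeR). Tnfsf13b, which encodes the B cell survival factor BAFF, stayed low at 0.283, 0.134 and 0.293 CPM against 1.19, 1.33 and 1.05 CPM (log2 fold change 2.28, SE 0.31, adjusted p = 0.00027).

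Among colony stimulating and IL-6 family factors, Lif showed the largest increase among those over 100 CPM. Lif, which acts with Osm through gp130, was at 131, 110.3 and 98.5 CPM in BALB/c and at 615, 527 and 541 CPM in C57BL/6. It was 4.95-fold higher (log2 fold change 2.31, SE 0.10, adjusted p = 2.26e-07). Osm, which starts 21.1 kb before Lif on chromosome 11 (4186420 to 4191026 and 4207557 to 4222514, both on the plus strand), was at 573, 654 and 589 CPM against 1012, 987 and 1040.2 CPM. Its libraries did not overlap either, but the difference was 1.67-fold (log2 fold change 0.74, SE 0.05, adjusted p = 3.53e-06). Csf1, the macrophage growth factor, was at 7.29, 6.54 and 5.77 CPM against 15.6, 13.6 and 14.3 CPM, 2.23-fold higher (log2 fold change 1.15, SE 0.10, adjusted p = 1.91e-05). On the TPM scale it was under 2-fold, at log2 0.91 with a pseudocount of 0.1 (limma), a setting in which the median of all genes was -0.18. Kitl, the gene of stem cell factor itself, had 3, 1 and 0 reads in BALB/c and 63, 64 and 92 reads in C57BL/6, a pooled ratio of 57.5 (95% interval 22.2 to 213, counting error only, adjusted p = 1.13e-05). Its fitted log2 fold change was 5.71, against 6.95 without S9 and 5.07 without S11. Csf2 (GM-CSF) had no read in BALB/c and 2, 1 and 0 reads in C57BL/6.

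**Figure D4:**
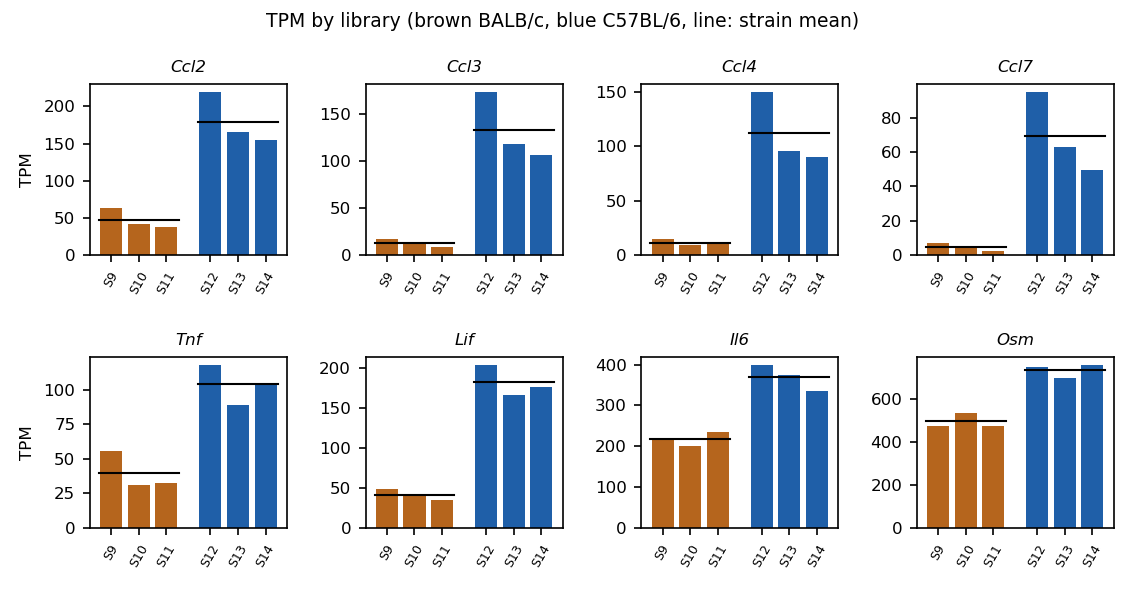
TPM of 8 secreted factor genes in each library, with bars from 0 (brown for BALB/c, blue for C57BL/6) and a black line at the strain mean, each panel with its own scale. S12 is the highest C57BL/6 library for all but Osm, and S9 the highest BALB/c library for Ccl2, Ccl3, Ccl4, Ccl7, Tnf and Lif.

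The tissue growth factors differed in their direction. Fgf2, a mitogen of fibroblasts and endothelium, was at 4.65, 3.32 and 3.51 CPM in BALB/c and at 30.8, 30.9 and 29.1 CPM in C57BL/6, 7.91-fold higher (log2 fold change 2.98, SE 0.11, adjusted p = 7.25e-08). Its gene (chromosome 3, 37402473 to 37464257, plus strand) overlaps Nudt6 on the other strand, which shares 42.8% of the 31-base words of Fgf2 transcripts and had 175 to 259 reads in all libraries (log2 fold change -0.00, adjusted p = 0.970). Summed with Nudt6, the log2 fold change of Fgf2 was 1.81. Pdgfa, which signals to mesenchymal cells, was at 2.61, 2.05 and 2.50 CPM against 9.70, 11.9 and 12.2 CPM, 4.70-fold higher (log2 fold change 2.23, SE 0.14, adjusted p = 1.5e-06). Its transcripts share 35.4% of their 31-base words with 6330403L08Rik, whose reads were not analysed here. Vegfa, the main angiogenic factor, was at 79.1, 94.0 and 82.2 CPM against 84.8, 76.1 and 73.7 CPM, overlapped between strains and did not pass the test (log2 fold change -0.12, SE 0.07, adjusted p = 0.197). Its relative Vegfb was lower in every C57BL/6 library but by under 2-fold (log2 fold change -0.48, SE 0.05, adjusted p = 3.37e-05). Areg, an epidermal growth factor receptor ligand, had no read in BALB/c and 5, 2 and 1 reads in C57BL/6.

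Spp1, the gene of osteopontin, an integrin-binding cytokine, was among the 4 genes that were lower in C57BL/6 (chromosome 5, 104582165 to 104589235, plus strand). It was at 68.6, 68.1 and 75.8 CPM in BALB/c and at 4.26, 5.51 and 7.40 CPM in C57BL/6. All C57BL/6 libraries were far under all BALB/c libraries, 12.3-fold on average (log2 fold change -3.62, SE 0.14, adjusted p = 9.55e-08). Mif, a macrophage regulator that is made without stimulation by many cells, was at 94.3, 108 and 106 CPM against 56.1, 49.4 and 60.4 CPM. Its fold change of 1.86 in favour of BALB/c did not reach 2-fold (log2 fold change -0.89, SE 0.08, adjusted p = 1.41e-05), while it did with plain library sizes (log2 fold change -1.04) and on the TPM scale, on which the median of all genes also lay lower, at -0.15 to -0.18 against -0.01. Mif transcripts share 40.4% of their 31-base words with C230062I16Rik, which had 4 to 17 reads in all libraries, and summed with it the log2 fold change of Mif was -0.89. Reads of several Mif pseudogenes that share sequence with it were not analysed here. Tslp, an epithelial alarmin, had 7, 8 and 11 reads in BALB/c and 6, 3 and 3 in C57BL/6.

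Of the 16 genes with too few reads for the test, 13 had under 10 reads in every library and 6 had none in any (Ccl22, Ccl24, Cxcl1, Cxcl3, Il3 and Il9). The 16 genes did not enter the test. In a fit without the filter on low counts, Areg was the only gene among them past both thresholds (adjusted p = 0.0487, edgeR), from 0 reads over the BALB/c and 8 over the C57BL/6 libraries.

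Levels of the secreted factor genes varied between libraries of a strain. Over the 22 genes with at least 30 reads in every library, the median coefficient of variation of the CPM was 12.5% in BALB/c, against 5.25% over the 10372 genes that met the same minimum, which were not matched for level. In C57BL/6 the medians were 10.7% and 4.20%. S9 was the highest BALB/c library for 12 of the 22 genes and S12 the highest C57BL/6 library for 14. Ccl7 spread widest of the monocyte attractants, with 2.85 times the level of S11 in S9 and 1.90 times the level of S14 in S12. Osm varied least among the 8 most abundant genes, by 1.14 times in BALB/c and 1.05 times in C57BL/6. Without S9 the count of secreted factor genes past both thresholds was 26, and without S12 it was 27.

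Shares of transcript forms could be compared for 8 members, and forms of Lif, Il6, Spp1, Il15 and Vegfa had shares without overlap between the strains. How often this holds over all genes was not computed. For Lif, the form NM_001039537 took 20.8, 21.0 and 30.9% of the reads of the gene in BALB/c and 12.2, 11.1 and 11.8% in C57BL/6. For Il6, the form NM_001314054 took 8.23, 6.21 and 7.27% against 10.8, 11.9 and 9.40%. For Spp1, the form NM_001204202 was lower in every C57BL/6 library, with 6.94, 7.62 and 7.16% against 0, 2.85 and 5.66%. The Il15 form XM_006530705 took 7.51 ± 1.92% against 16.0 ± 6.29%, and XM_006530707 none against 6.32, 1.51 and 4.66%. The Vegfa form NM_001287057 took 39.7 ± 3.78% against 33.3 ± 3.61%, with the lowest BALB/c library at 37.5% and the highest C57BL/6 library at 37.2%. The forms of Csf1, Tnfsf8 and Vegfb overlapped in share. These shares are Salmon estimates, and their differences were not tested.

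Other secreted factors, receptors and regulators were viewed beside the members. Of 67 other secreted factor genes 19 could be tested, and 6 were higher and none lower in C57BL/6, with a median log2 fold change of 0.65. Over all genes tested, 7.73% were higher and 5.54% lower. Cx3cl1, Ccl27a and Xcl1, which are among the 6, had at most 4 reads in any BALB/c library and passed the filter on low counts through C57BL/6. Cx3cl1 (fractalkine) had 3, 0 and 0 reads in BALB/c and 219, 202 and 231 in C57BL/6. The epidermal growth factor receptor ligands Tgfa and Hbegf had log2 fold changes of 2.70 (adjusted p = 2.35e-06) and 1.43 (adjusted p = 5.86e-06, edgeR), and Ebi3, a subunit of IL-27 and IL-35, one of 1.15 (adjusted p = 0.000556). Ccl27a and Xcl1 made up the 6. Of 58 receptor genes 32 were tested, with 9 higher and 2 lower (median 0.37), the latter near the share of lower genes over all genes tested. Tnfrsf8 (CD30, the receptor of Tnfsf8) had 0, 13 and 0 reads in BALB/c and 284, 366 and 479 in C57BL/6, and Il4ra, the receptor chain shared by IL-4 and IL-13, was at 513 ± 26.3 CPM against 1346 ± 25.7 CPM (log2 fold change 1.39, adjusted p = 2.44e-08). Fgfr1, a receptor of Fgf2, and Crlf2, the receptor of Tslp, were higher too, with log2 fold changes of 2.29 (adjusted p = 1.99e-06) and 1.56 (adjusted p = 4.83e-09, edgeR). Ccr8 and Cd74, receptors of Ccl1 and Mif, were the 2 that were lower. Ccr8 had 11, 16 and 15 reads in BALB/c against 4, 3 and 7 in C57BL/6. Cd74 had 22, 29 and 37 reads against 3, 5 and 3. Both passed the filter on low counts through BALB/c. Il2ra, among the 9 that were higher, had 8, 8 and 9 reads in BALB/c and passed the filter through C57BL/6.

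Of 19 tested genes of cytokine processing and release, 2 passed both thresholds and 12 an adjusted p of 0.05 alone, beside 13.3% and 52.9% of all genes tested. Rhbdf2, a partner of the TNF-releasing protease ADAM17, was higher (log2 fold change 1.08, adjusted p = 7.65e-06) and the inflammasome sensor Nlrp3 was lower. Nlrp3 had 1097, 1266 and 1370 reads in BALB/c and 856, 264 and 365 in C57BL/6, where S12 stood apart (log2 fold change -1.27, adjusted p = 0.00919). Of 18 tested genes of mRNA decay, 1 passed both thresholds and 10 an adjusted p of 0.05 alone. The gene past both was Zfp36l1, which binds AU-rich elements and was higher (log2 fold change 1.70, adjusted p = 1.56e-06), and the median of the list was -0.03.

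Of 39 tested transcription factors of cytokine genes 6 passed both thresholds as higher and none as lower (median 0.10), beside 7.73% and 5.54% over all genes tested. By the adjusted p alone 23 passed, beside 52.9% of all genes tested. Of the 23, Fos, Jund, Batf, Gata1, Stat3, Stat5b, Mitf and Ikzf1 were lower, each by under 2-fold, and the rest were higher. Of 22 genes known to rise on mast cell activation 8 were higher and none lower (median 0.61). Among the transcription factors, Cebpa had 5, 3 and 2 reads in BALB/c and 330, 253 and 334 in C57BL/6, and passed the filter on low counts through C57BL/6. Gata3 had a log2 fold change of 1.17 (adjusted p = 8.73e-05). Egr2 and Egr3, early growth response factors on both lists, had log2 fold changes of 2.26 (adjusted p = 1.75e-06) and 3.36 (adjusted p = 3.05e-06, edgeR). Of the activation genes, Ptgs2 (cyclooxygenase 2) was at 1.42 ± 0.348 CPM in BALB/c against 61.8 ± 15.1 CPM (log2 fold change 5.44, adjusted p = 1.77e-07), and Atf3 at 5.36 ± 2.58 CPM against 116 ± 12.5 CPM (log2 fold change 4.43, adjusted p = 4.38e-07). The other 14 activation genes did not pass both thresholds. By the adjusted p alone, Egr1, Junb, Ier2, Dusp2 and Socs3 were higher (log2 fold changes 0.53, 0.39, 0.18, 0.83 and 0.69) and Fos and Dusp1 lower (-0.90 and -0.61). Jun had a log2 fold change of 0.01 (adjusted p = 0.961, edgeR). These genes under 2-fold were named after their values were seen.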

How the data were processed

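BMMC libraries were made with the TruSeq Stranded mRNA kit, and reads passed FastQC v0.11.5. The authors estimated counts and TPM per transcript with Salmon v0.8.2, and both were used as deposited. The methods name an Ensembl GRCm39 transcriptome, while the deposited tables list RefSeq accessions. The strand setting is not given in the sources used here. The GRCm39 reference is of C57BL/6J mice, and its effect on the assignment of BALB/c reads was not tested.

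Of 129698 transcripts, 106430 (82.1%) were matched to 35293 genes through RefSeq names (GRCm38.p6, names only). Unmatched transcripts held 2.69 to 3.12% of the reads of a library and do not enter the fit. The estimated counts of each gene were added up, rounded and tested with edgeR 4.0.16 in R 4.3.3 (quasi-likelihood F-test, TMM factors, filterByExpr with a minimum count of 10, Benjamini-Hochberg adjustment over 12458 genes). The thresholds were an adjusted p of 0.05 and 2-fold. SEs were log2 fold change over the square root of F. CPM used TMM-corrected library sizes. Ratios of genes with 4 or fewer reads in 1 strain have exact binomial 95% intervals, and intervals and floors cover counting error only. Alternatives included DESeq2 1.42.0 and limma 3.58.1 on log2 TPM with a pseudocount of 1 or 0.1. Positions and windows of 250 bases come from GENCODE vM39 on GRCm39.

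The members and the accompanying lists were chosen with earlier results of these data known. Values per library were given for genes past both thresholds and for the 8 with the highest mean TPM. For other tested genes with an adjusted p under 0.05 the log2 fold change is given, and of each accompanying list up to 4 genes with the largest change, past both thresholds and with a mean of at least 100 reads. Some genes of these lists with fewer reads were named to give their low counts.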

Additional observations from a re-analysis of the deposited data

How the results depend on the processing

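The number of secreted factor genes past both thresholds was 26 and ranged from 19, with a filter of 10 counts in every library, to 27 over all alternatives, and from 26 to 27 when libraries were left out one at a time. The number with an adjusted p under 0.05 was 31 and ranged from 24 to 33. Of the accompanying lists, 32 genes passed both thresholds, against 21 with a filter of 10 counts in every library, which tests fewer genes, and 21 in limma on log2(TPM + 1), where the cause was not tested. No log2 fold change of a tested secreted factor gene changed its sign where the gene was called. Ccl17, Tnfsf13b, Kitl and Csf1 fell under 2-fold in limma on log2(TPM + 1), and Csf1 also with a pseudocount of 0.1. With plain library sizes the median log2 fold change of all genes was -0.15, and in limma on log2(TPM + 1) and log2(TPM + 0.1) it was -0.15 and -0.18, against -0.01, so that values on these scales are shifted. By the adjusted p alone, Il4 and Vegfa passed under these 3 settings and Ltb in both limma fits, while Il15 was lost in both. Allowing 20 reads in place of 100 raised the number of genes with a comparison of transcript shares from 8 to 11. No paired analysis was possible because the strains share no replicate numbers. Below about 10 reads per library the depth limits any comparison.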
